A study of Mus musculus with 5 samples.

Results

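The D-type and E-type cyclins of the G1 phase, the kinases CDK4 and CDK6 and 3 inhibitors of these kinases were examined in 32D cells, a mouse myeloid progenitor line that normally needs interleukin-3. The genes are Ccnd1, Ccnd2, Ccnd3, Cdk4, Cdk6, Ccne1, Ccne2, Cdkn1a, Cdkn1b and Cdkn2c, 10 of the 18193 genes with a probe set of their own on the array. All 27 probe sets that the platform annotation assigns to these genes were taken. The genes were chosen with values of these arrays known, and the opposite differences of Ccnd2 and Ccnd3 were part of the choice, so their values are a description. The cells carried 1 of 5 retroviral FLT3-ITD constructs, named ITD613, ITD78, ITD598, ITD602 and ITD611 in the labels, in stable transduction. FLT3 is a growth factor receptor with tyrosine kinase activity, and internal tandem duplications (ITDs) found in leukaemia leave it active in the absence of its ligand. Cells of every construct had been starved for 3 h and then given a tyrosine kinase inhibitor, which the labels do not name, for 1 h. The labels do not say what the construct numbers mean or whether the cells of a construct were 1 clone, and no array of cells without a construct was analysed here.

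D cyclins bind CDK4 or CDK6, and the complex phosphorylates the retinoblastoma protein, which then releases E2F transcription factors. E2F factors switch on the E cyclins and the genes of DNA replication. The INK4 inhibitor encoded by Cdkn2c binds CDK4 and CDK6 themselves, while the CIP/KIP inhibitors encoded by Cdkn1a and Cdkn1b bind cyclin-kinase complexes and restrain mainly those of cyclin E. In blood cells the main D cyclins are Ccnd2, a target of cytokine signalling through STAT5, and Ccnd3, which mouse erythroid precursors need for their normal number of divisions.

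Each construct was measured on 1 Affymetrix array as log2 RMA values, whose medians over all probe sets ran between 1.99 and 2.06. With 1 array per construct no difference was tested, and the number of arrays limits the precision. An array was set against the mean of the other 4, and an SD below is the spread of those 4 arrays (n = 4), not of replicates. A gene was counted as higher or lower on an array where it lay at least 0.5 (log2; 1.41-fold) from that mean and outside the range of the other 4. Values under 3.74 lie in a range where at least 100 probe sets of an array can share 1 value, and differences there have no reliable size. The ITD602 array has a different date-like string in its title than the other 4, so a difference of that array between runs and one between constructs cannot be told apart.

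Of the 10 markers of myeloid progenitors, 7 passed the low-value filter of 2.75, and Cebpa, Elane and Kit lay below it on all 5 arrays. No lymphoid marker (4 of 5 with a probe set) and no stromal marker (5 of 5) passed, with highest values of 2.64 and 2.28. The mean level of the myeloid list, Cebpa, Elane and Kit included, was 4.36 on ITD613 and 4.60 on ITD78, against 5.28, 5.37 and 5.12 on ITD598, ITD602 and ITD611. Ptprc, Spi1, Ctsg, Prtn3 and Csf2rb were lowest on ITD613 and second lowest on ITD78. Mpo was lowest on ITD78 (4.52) and read 5.18 on ITD613 against 5.00 on ITD611, and Il3ra was highest on ITD613, at 3.69 in the low range. The mean level of the 5 erythroid markers with a probe set was higher on ITD613 and ITD78, at 4.79 and 4.24 against 3.85, 3.65 and 3.80. The erythroid transcription factor genes Klf1 and Gata1 made this difference, while Hba-a1 and Alas2 stayed below the filter on every array. Epor passed the filter and read 3.11 on ITD613, against 3.24 on ITD78, ITD598 and ITD602 and 3.08 on ITD611. All of these lie under 3.74, so whether Epor differs between the arrays cannot be read from them. The 2 list means have ITD613 at one end and ITD78 next to it, as do the Ccnd2 and Ccnd3 values below. Ccnd1, Ccne1 and Ccne2 did not follow that order. Any part of the shifts of the list means in the cyclin values was not tested. In bulk RNA, fewer cells of a type and less RNA per cell cannot be told apart.

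Of the 10 genes, 7 have promoter windows in the RefSeq table of GRCm38.p6. Ccnd1, Ccnd2 and Ccne2 have none there, so their promoters were not searched. Those of Cdk4, Cdk6 and Ccnd3 are shown, a D cyclin gene and the genes of both kinases its product binds, because all but one of their windows hold a motif searched here, while those of the other genes hold none. Each line gives the 250 bases before a transcription start, 5′ to 3′. The capitals mark CACGTG, the E-box bound by MYC and MAX, TTTNNCGC, a loose E2F form with any base at N, and TGTTTAC, the FOXO site. These motifs were searched on both strands together with the STAT form TTCNNNGAA and the GATA factor form AGATAA.
Cdk4, chr10:127063285-127063534, plus strand: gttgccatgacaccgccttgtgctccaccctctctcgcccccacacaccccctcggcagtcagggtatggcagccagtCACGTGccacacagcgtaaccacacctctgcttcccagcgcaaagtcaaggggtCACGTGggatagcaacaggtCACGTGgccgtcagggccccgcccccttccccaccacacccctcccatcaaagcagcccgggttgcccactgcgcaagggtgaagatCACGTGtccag
Cdk6, chr5:3343643-3343892, plus strand: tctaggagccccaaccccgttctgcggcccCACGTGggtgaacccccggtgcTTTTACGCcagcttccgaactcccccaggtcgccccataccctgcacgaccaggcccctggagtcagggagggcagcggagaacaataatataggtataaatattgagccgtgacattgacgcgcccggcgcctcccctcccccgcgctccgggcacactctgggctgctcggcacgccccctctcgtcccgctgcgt
Ccnd3, upstream start, chr17:47504801-47505050, plus strand: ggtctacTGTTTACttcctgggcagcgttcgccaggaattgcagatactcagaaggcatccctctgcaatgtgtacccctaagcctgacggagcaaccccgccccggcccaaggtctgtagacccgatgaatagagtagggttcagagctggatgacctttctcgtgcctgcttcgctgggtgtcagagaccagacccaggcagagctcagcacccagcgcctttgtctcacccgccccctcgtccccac
Ccnd3, downstream start, chr17:47593217-47593466, plus strand: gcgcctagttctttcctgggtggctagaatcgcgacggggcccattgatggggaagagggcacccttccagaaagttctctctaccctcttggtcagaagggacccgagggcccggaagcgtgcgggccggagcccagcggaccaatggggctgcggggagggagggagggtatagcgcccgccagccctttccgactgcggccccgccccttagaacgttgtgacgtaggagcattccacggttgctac
The Cdk4 window held 4 E-boxes, at bases -172, -118, -98 and -11 from the start. Of 32851 promoter windows of this length, 6.02% held at least 1 E-box and 0.0213% (7 windows) held 4 or more. The Cdk6 window held 1 E-box and 1 E2F form, a motif found in 4.28% of windows. The upstream Ccnd3 window held 1 FOXO form, found in 3.17% of windows, and the downstream one held none of the 5 motifs. The STAT form occurs in 7.02% and the GATA form in 9.99% of all windows, and neither occurs in any of the 10 windows of these 7 genes. Nothing follows for Ccnd2, which has no window. A match is a run of letters and not a measured binding site.

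On the ITD613 array Ccnd2 was lower and Ccnd3, Ccne2, Cdkn1b and Cdkn2c were higher than on any other array, while Ccnd1, Cdk4, Cdk6 and Ccne1 stayed within 0.15 of the mean of the other 4 on the probe set that stands for each gene. By the rule of size, 4 of the 10 genes were higher on ITD613 and 1 was lower. With all probe sets of a gene averaged, 2 were higher, since Ccnd3 (0.37) and Cdkn1b (0.33) then fell short of 0.5. Of the 9621 genes that passed the low-value filter, 12.4% were higher and 9.24% were lower on ITD613 by the same rule. Nothing is read from these shares, since the genes were chosen from the same values. Only Cdkn2c reached 1 (log2; 2-fold) on the higher side, as did 3.13% of all genes, and none of the 10 did on the lower side, where 2.29% of all genes did. On ITD602 only Ccne2 was past 0.5, and it was lower, as were 3.42% of all genes there (3.95% were higher). None of the 10 was past 0.5 in either direction on ITD78, where 1.08% of all genes were higher and 1.67% lower, on ITD598 (0.852% and 0.447%) or on ITD611 (0.385% and 1.36%). The range over the 5 arrays was at least 1 for 3 of the 10 genes (Ccnd3, Ccne2 and Cdkn2c) and for 10.4% of all genes.

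**Figure D1:**
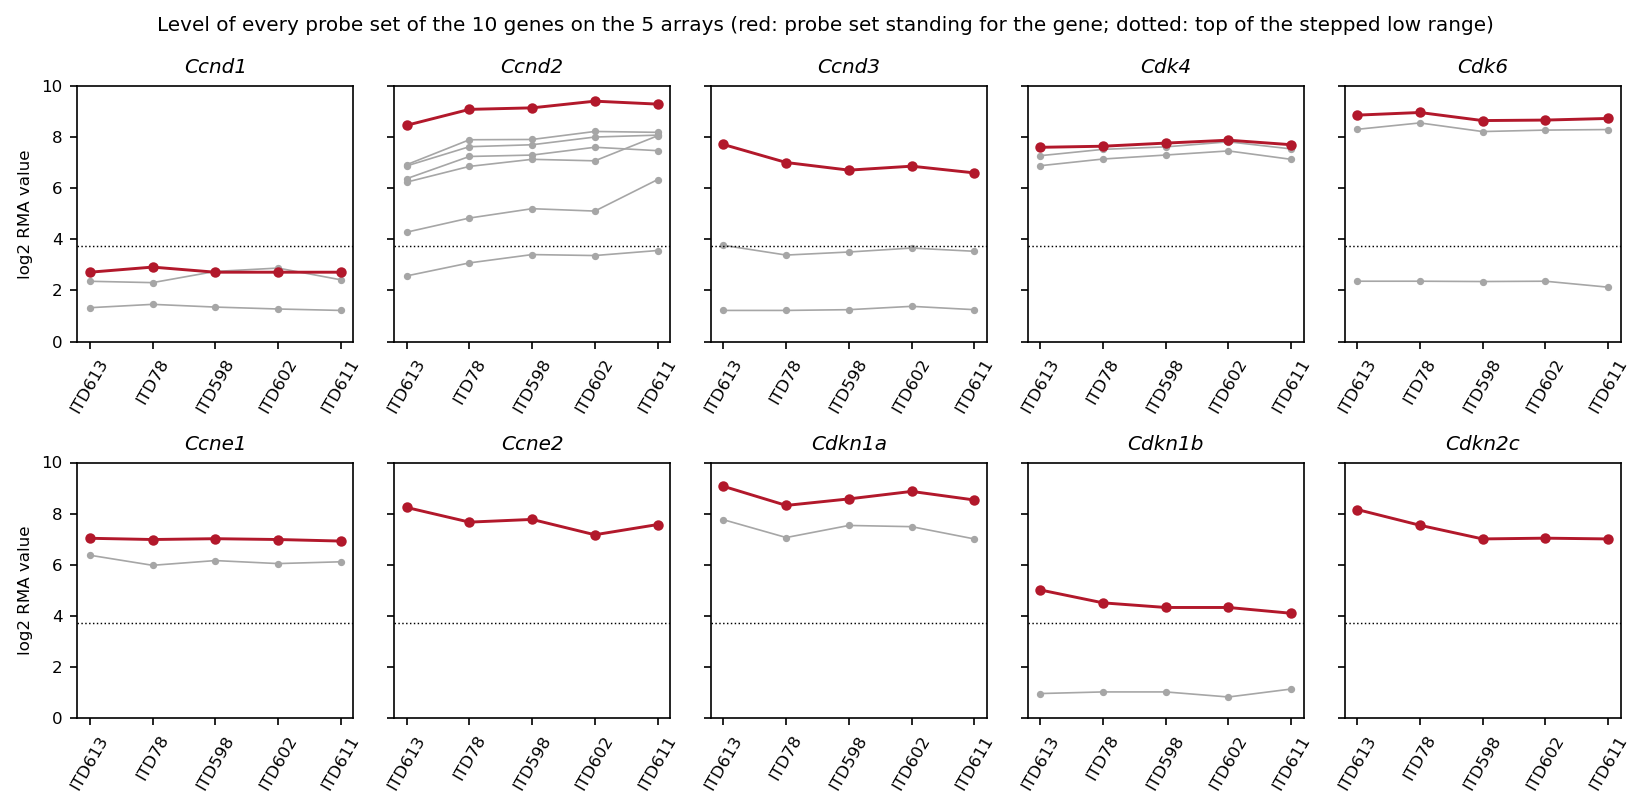
Level (log2 RMA value, vertical axis) of all 27 probe sets of the 10 genes on the 5 arrays (horizontal axis), with 1 panel per gene and a line joining the values of 1 probe set. Red marks the probe set with the highest mean, grey the others, and the dotted line the top of the stepped low range (3.74). Ccnd2 is lowest and Ccnd3 highest on ITD613, and all Ccnd1 values lie under the dotted line.

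Among the D cyclins, Ccnd2 read 8.46 on ITD613, against 9.09 on ITD78, 9.15 on ITD598, 9.41 on ITD602 and 9.29 on ITD611. ITD613 lay 0.62 below its nearest neighbour, ITD78, and the other 4 arrays covered 0.32 in all. The difference of ITD613 from the other 4 was -0.77, or 1.70-fold lower than their mean of 9.23 ± 0.14. ITD78 and ITD598 differed by 0.06, less than the median absolute difference over all genes between the 2 most alike arrays (ITD598 and ITD611, 0.09), while the other steps in this order were larger than that.

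Ccnd2 has 7 probe sets, and ITD613 was the lowest array on each of them, by -1.13 to -0.77 from the mean of the other 4. They did not agree on the top of the order. On 1416123_at, ITD611 read 6.34, against 4.28 on ITD613, 4.83 on ITD78, 5.20 on ITD598 and 5.11 on ITD602. On 1448229_s_at, ITD611 read 8.05, against 6.24 on ITD613, 6.85 on ITD78, 7.13 on ITD598 and 7.07 on ITD602. On these probe sets ITD611 thus stood 1.14 and 0.92 above the next array, whereas on the probe set that stands for the gene it was 0.11 below ITD602. Over all 7, ITD611 was the highest on 4 and ITD602 on 3. Which part of the transcript each probe set reads was not analysed here.

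**Figure D2:**
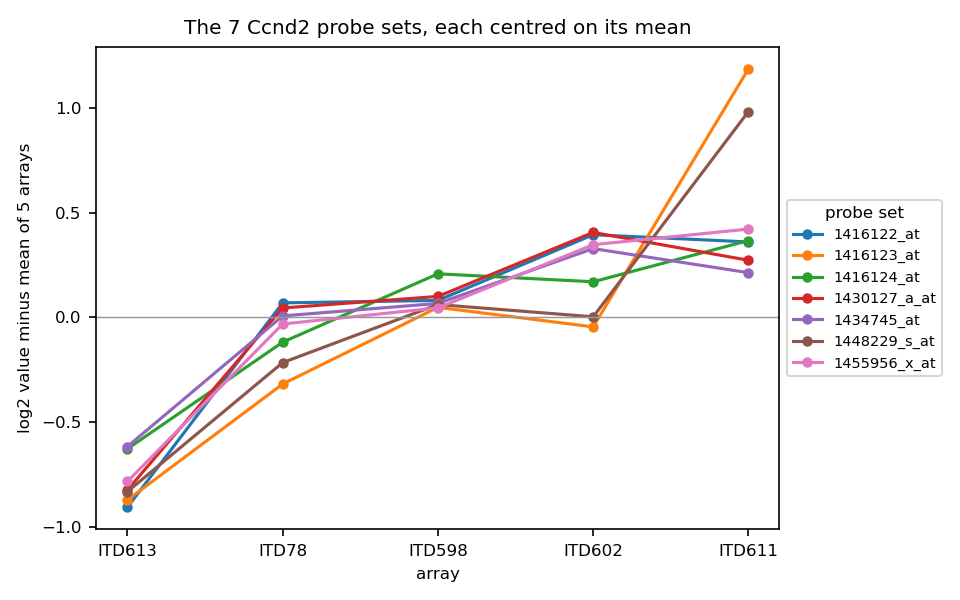
The 7 Ccnd2 probe sets on the 5 arrays (horizontal axis), each as its log2 value minus its own mean over the arrays (vertical axis), with a line joining the values of 1 probe set. All 7 are lowest on ITD613, and 1416123_at and 1448229_s_at stand above the other 5 on ITD611.

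Ccnd3 went the other way. It read 7.71 on ITD613, against 7.01 on ITD78, 6.71 on ITD598, 6.86 on ITD602 and 6.60 on ITD611. ITD613 was 0.70 above ITD78, and 0.92 (1.89-fold) above the other 4, whose mean was 6.79 ± 0.18. The steps between the other 4 arrays were 0.11 to 0.15, so they form an order with no large gap, from ITD611 at the low end to ITD78. The other Ccnd3 probe sets carry little: 1444323_at read 3.77 on ITD613 and 3.39 to 3.66 elsewhere, around the top of the low range, and 1438805_at stayed at or below 1.38. The Ccnd3 difference therefore rests on 1 probe set, unlike that of Ccnd2.

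Ccnd1, the D cyclin of many tissues outside blood, did not rise out of the low range. All 3 probe sets lay below 3.74 on every array, the highest value being 2.92 on ITD78. The probe set that stands for the gene read 2.72 on each of the other 4 arrays, a shared low value, and passed the filter only through ITD78.

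Of the kinases that D cyclins activate, Cdk4 differed little and in the same direction as Ccnd2. It read 7.60 on ITD613, against 7.64 on ITD78, 7.77 on ITD598, 7.88 on ITD602 and 7.70 on ITD611. ITD613 was the lowest and ITD602 the highest array on all 3 Cdk4 probe sets, with ITD613 between -0.38 and -0.15 from the mean of the other 4. Only the step from ITD598 to ITD602 exceeded 0.09 on the probe set that stands for the gene.

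Cdk6 was highest on ITD78, at 8.96, against 8.86 on ITD613, 8.65 on ITD598, 8.67 on ITD602 and 8.73 on ITD611. ITD78 was also highest on 1455287_at, at 8.56, against 8.22 to 8.30 on the other arrays. The difference of 0.24 from the other 4 on the first of these was below the 0.5 rule, and the third probe set, 1460291_at, stayed at or below 2.36.

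**Figure D3:**
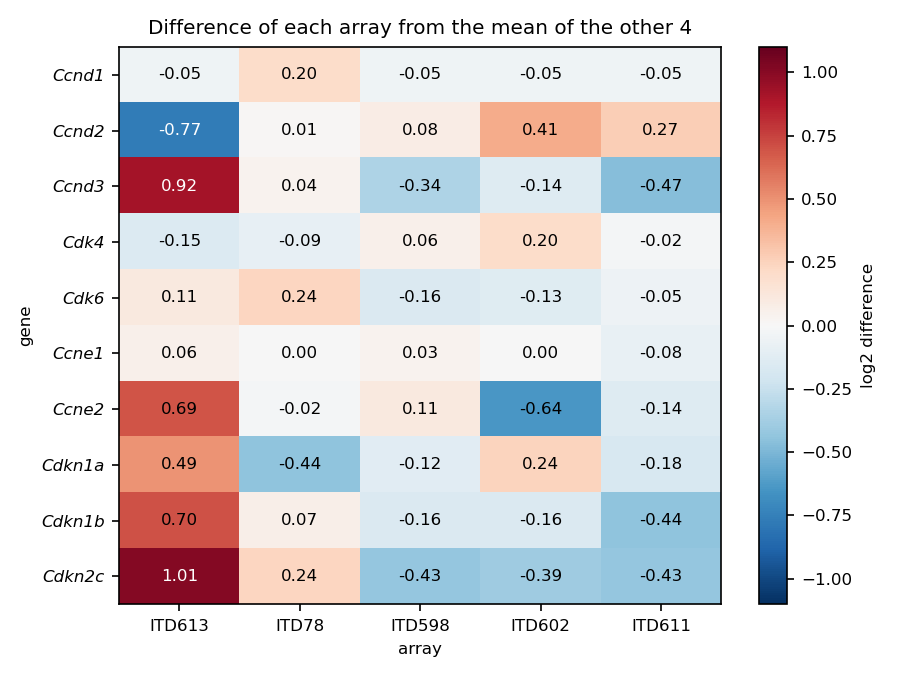
Difference (log2, colour and printed number) of each array (columns) from the mean of the other 4, for the 10 genes (rows). On ITD613, Ccnd2 reads -0.77 and Ccnd3 0.92, Cdkn2c 1.01, Cdkn1b 0.70 and Ccne2 0.69, and the only other value past 0.5 is Ccne2 on ITD602 (-0.64).

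The E cyclins, which activate CDK2 late in G1, were unlike each other. Ccne2 read 8.24 on ITD613, against 7.67 on ITD78, 7.77 on ITD598, 7.17 on ITD602 and 7.57 on ITD611. It was 0.69 (1.62-fold) above the other 4 on ITD613, whose mean was 7.55 ± 0.26. ITD602 was at the opposite end, -0.64 from the mean of the other 4 (7.81 ± 0.30), with 0.40 to the next array. Ccne2 is measured by 1 probe set, and without ITD613 among the comparators the ITD602 difference was -0.50 and just short of the 0.5 rule.

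Ccne1 was nearly level on the probe set that stands for it, 1441910_x_at, and less so on the other. Its probe set with the highest mean read 7.04 on ITD613 and 6.93 to 7.02 on the other 4 arrays, and no step in that order exceeded 0.09. The other, 1416492_at, read 6.37 on ITD613, against 5.98 on ITD78, 6.16 on ITD598, 6.05 on ITD602 and 6.12 on ITD611, a difference of 0.30 from the other 4. ITD613 was highest on both.

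Among the inhibitors, Cdkn2c had the largest difference of the 10 genes on ITD613. It read 8.16 on ITD613, against 7.55 on ITD78, 7.01 on ITD598, 7.04 on ITD602 and 7.01 on ITD611. ITD613 was 1.01 (2.01-fold) above the other 4 (7.15 ± 0.26) and 0.62 above ITD78, which itself stood 0.51 above ITD602. ITD598, ITD602 and ITD611 lay within 0.03 of one another. Cdkn2c has 1 probe set.

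Cdkn1b, which encodes p27 and is a target of FOXO factors, also had ITD613 first and ITD78 second. It read 5.01 on ITD613, against 4.51 on ITD78, 4.33 on both ITD598 and ITD602 and 4.10 on ITD611. The difference of ITD613 was 0.70 (1.62-fold) from a mean of 4.32 ± 0.17. The other probe set, 1419497_at, stayed at or below 1.14 on every array, so the Cdkn1b difference also rests on 1 probe set.

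Cdkn1a, which encodes p21, read 9.07 on ITD613, against 8.32 on ITD78, 8.58 on ITD598, 8.87 on ITD602 and 8.53 on ITD611. The difference of ITD613 was 0.49 on this probe set and 0.49 on 1421679_a_at, just under the 0.5 rule, and without ITD602 among the comparators it was 0.59. ITD78 was the lowest array here (-0.44), but on 1421679_a_at ITD611 was, at 7.01 against 7.06 on ITD78. Cdkn1a was thus the only inhibitor of the 3 on which ITD78 did not stand next to ITD613.

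In 5 of the 10 genes, on the probe set that stands for each, ITD613 was at one end of the order and ITD78 next to it. Ccnd3, Cdkn1b and Cdkn2c were highest on ITD613 and second on ITD78, an order shown by 16.1% of all genes, and Ccnd2 and Cdk4 were lowest on ITD613 and second lowest on ITD78, as were 16.6%. The remaining 5 genes (Ccnd1, Cdk6, Ccne1, Ccne2 and Cdkn1a) did not follow either order. In Ccnd2 and Cdk4 the distance from ITD78 to the next array was 0.06, within the spread of the closest pair of arrays. In Cdk4 ITD613 and ITD78 were also only 0.04 apart. Other probe sets broke the order. On 1422440_at of Cdk4, ITD611 (7.13) stood next to ITD613, before ITD78 (7.14). On 1444323_at of Ccnd3, ITD78 was the lowest array, at 3.39 in the low range.

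The rest of the pathway was described through 7 lists of genes. In the retinoblastoma family and the E2F factors, 8 of 13 genes were higher on ITD613 and 0 were lower, with a median difference of 0.56. Over all genes 12.4% were higher, 9.24% were lower and the median was 0.01. Of the 8, Rbl2 read 3.76 on ITD613 and 3.12 to 3.17 on the other arrays, in the low range. With low values raised to the top of that range, 7 were higher. E2f2, an activator of replication genes, read 7.60 on ITD613, against 6.79 on ITD78, 5.86 on ITD598, 5.60 on ITD602 and 5.71 on ITD611. E2f6, a repressor of the family, read 6.55 against 5.57 ± 0.51, with ITD78 close at 6.32, and only 1 of its 2 probe sets that passed the filter had this sign. Rb1, the retinoblastoma gene, read 8.09 against 7.16 ± 0.27. Only 2 of the 13 were higher on ITD613 once all probe sets of a gene were averaged. E2f2 and Rb1 were the lowest on ITD602, at -0.89 and -0.59 from the other 4, and E2f6 was the lowest on ITD598, at -0.64.

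Of the 30 target genes of E2F in S phase entry 28 passed the filter, and of these 4 were higher on ITD613 and 1 was lower, with a median difference of 0.05. The higher share is close to the 12.4% of all genes and the median to their 0.01. Fen1, a flap endonuclease, read 10.38 on ITD613 against 9.72 ± 0.21 on the other 4. Cdc6, which loads the replicative helicase, read 7.01 against 6.46 ± 0.05. Slbp, the histone mRNA binding protein, read 9.87 against 9.34 ± 0.10, but only 1 of its 2 probe sets had this sign. Cdca7, a MYC and E2F target, was lower at 6.71 against 7.33 ± 0.09. These were small differences, and with each array centred on its median only 1 gene was counted as higher. On ITD602, Mcm4, a subunit of that helicase, read 8.75 against 9.42 ± 0.22. Tyms, the thymidylate synthase gene, read 4.45 on ITD602 against 5.07 ± 0.21 on the other 4, and it was highest on ITD78 at 5.35 against 4.85 ± 0.28, with 1 of its 2 probe sets having these signs.

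The 14 genes of the G2 and M phases that passed had a median difference of 0.37 on ITD613, and 6 of them were higher and 0 lower, beside 12.4% and 9.24% of all genes and their median of 0.01. Cenpf, a kinetochore protein, read 7.12 on ITD613 against 5.92 ± 0.36. It was the lowest on ITD602 (-0.73 from the other 4), at 5.57 beside 5.80 on ITD598. Kif11, a spindle motor, read 8.01 against 7.27 ± 0.29, on 2 of 3 probe sets in this direction. Mki67, the proliferation marker Ki-67, read 10.56 against 9.92 ± 0.22. With all probe sets of a gene averaged, 3 genes were higher.

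Of 14 regulators linked to D cyclins, not all of which act on the genes themselves, 7 passed. On ITD613 4 of these 7 were higher, with a median difference of 0.86, beside 12.4% of all genes and their median of 0.01. The 4 were Stat5a, Stat5b, Myc and Ccndbp1 (0.86), whose product binds cyclin D protein. With probe sets averaged, 2 were higher. Stat5a and Stat5b, the transcription factors that carry cytokine and FLT3-ITD signals to Ccnd2, read 4.89 on ITD613 against 3.60 ± 0.34 and 6.28 against 5.41 ± 0.24. On ITD598, ITD602 and ITD611 Stat5a was in the low range, so its difference has no reliable size. Myc, whose product binds the E-box, read 8.34 on ITD613 against 7.42 ± 0.04. On the same array Ccnd2 and Cdk4 were at their lowest, and whether these RNA levels are linked was not tested. Stat5b was also the lowest on ITD598 (-0.61), at 5.10 beside 5.38 on ITD611, on 1 of its 2 probe sets.

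The 16 genes for the turnover of D cyclins and p27 went both ways on ITD613, with 2 higher, 2 lower and a median of 0.12, close to the shares over all genes (12.4% and 9.24%). Ubac1 and Rnf123, the subunits of a ubiquitin ligase of p27, read 7.68 against 6.77 ± 0.30 and 5.00 against 4.34 ± 0.13. Fbxo31 and Cul1, parts of ligases that act on D cyclins and p27, were lower, at 3.91 against 4.42 ± 0.23 and 7.33 against 7.83 ± 0.19, and Fbxo31 had this sign on 1 of 2 probe sets. Ubac1 was the lowest on ITD598, at -0.57 from the other 4, and read 6.50 there beside 6.65 on ITD611. Of the other CDK inhibitors 2 of 5 passed, and Cdkn3, a phosphatase of CDK2, read 4.73 on ITD613 against 3.88 ± 0.12, with its lowest value at the top of the low range. None of the 8 other kinases and cyclins of G1 and S that passed, CDK2 among them, was past 0.5 on any array.

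**Figure D4:**
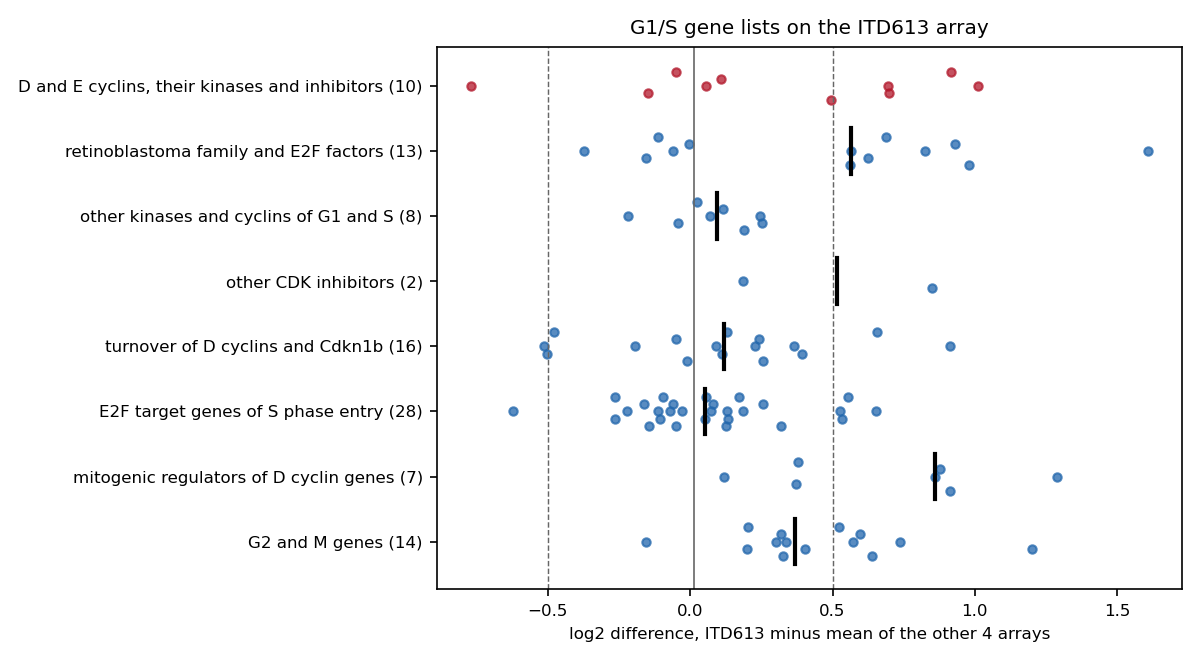
Difference of ITD613 from the mean of the other 4 arrays (log2, horizontal axis) for each gene (points) of the 10 genes (red) and of the 7 lists (blue; number of genes that passed the filter in brackets). Black bars are list medians, the grey line is the median of all genes (0.01) and the dashed lines are at 0.5 on either side. The retinoblastoma and E2F list has its median at 0.56 and the list of E2F targets of S phase entry at 0.05.

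Genes with a course over the 5 arrays like that of Ccnd2 or Ccnd3 were sought among those ranging over at least 1 (log2), by the root mean square distance between profiles centred on their means. Over 5 arrays this measure is a description only. Ccnd2 itself ranged over 0.94, so genes with a range as small as its own were left out. Its profile was that of 1434745_at, with ITD602 highest, while ITD611 was highest on 4 of its 7 probe sets. Nearest to Ccnd2, of 999 genes, were Mapk6, an atypical MAP kinase gene (distance 0.05), the glucose transporter gene Slc2a3 (0.05), the serine/threonine kinase gene Pim1 (0.05), Shmt2, a mitochondrial enzyme of serine metabolism (0.06), and Slc23a2, a vitamin C transporter (0.06). Pim1 read 7.91 on ITD613, against 8.62 on ITD78, 8.68 on ITD598, 8.98 on ITD602 and 8.73 on ITD611. Nearest to Ccnd3, of 998 genes, were Ccpg1os (0.04), the DNA translocase gene Zranb3 (0.05), Rpain, which encodes a carrier of replication protein A (0.05), the Polycomb gene Cbx2 (0.05) and Gimap8, a GTPase of the immune-associated family (0.06). Zranb3 read 5.56 on ITD613, against 4.86 on ITD78, 4.48 on ITD598, 4.60 on ITD602 and 4.43 on ITD611. Ccpg1os, Cbx2 and Gimap8 reach into the low range.

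**Figure D5:**
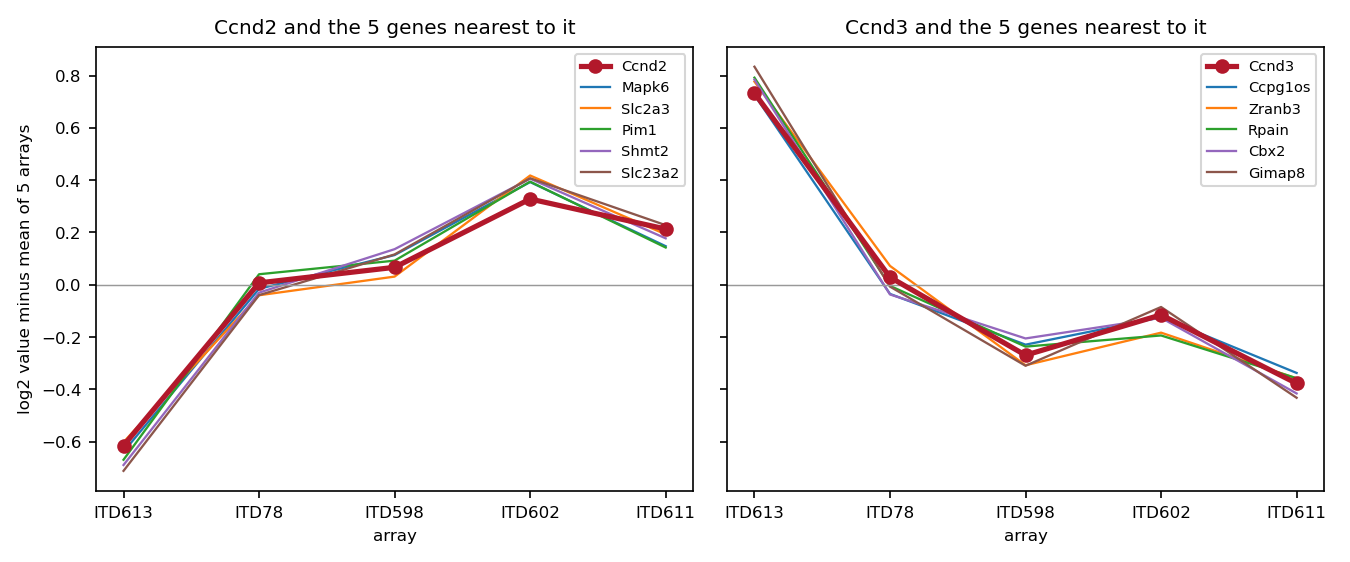
Log2 value minus the mean of the 5 arrays (vertical axis) by array (horizontal axis) for Ccnd2 (left) and Ccnd3 (right), in thick red. Thin lines are the 5 genes nearest to each among those ranging over at least 1 (log2). The Ccnd2 set is lowest on ITD613 and highest on ITD602, and the Ccnd3 set is highest on ITD613 and lowest on ITD611.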

How the data were processed

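The deposited table holds 1 log2 value for each of 45101 probe sets, made by the authors with RMA, per the submitters' processing notes. The labels name no RMA software. Base 2 was inferred from the range of the values. Probe sets were named from the platform annotation (34945 with 1 gene symbol). Gene IDs of 34741 matched a RefSeq table of GRCm38.p6, which renamed 0. The probe set with the highest mean stood for its gene, and 9621 of 18193 genes passed a filter on low values (highest value no lower than the 60th percentile of the table, 2.75). The rules were run on simulated data with the noise of the 2 most alike arrays, ITD598 and ITD611, equal for all genes. The SD of the difference between those arrays was 0.18, against 0.42 to 0.63 for pairs with ITD613. That run does not show how the rules do at a larger spread. Named genes are the 10 genes, per list, array and direction up to 3 genes past 0.5 with the largest difference, the 5 genes nearest to Ccnd2 and Ccnd3, and markers. The genes, lists and rules were chosen with earlier results of these data known. Alternatives were the mean of probe sets, other probe sets, normalizations, filters and comparators. Python 3.11.15, pandas 2.3.3 and numpy 2.4.6 were used.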

Additional observations from a re-analysis of the deposited data

How the results depend on the processing

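No paired analysis was possible because each construct has 1 array. Over 140 alternative values of 14 single differences of the 10 genes, 129 moved by less than the spread of the other 4 arrays or not at all, 11 moved by more (4 of them for Ccnd1, whose values lie in the low range) and 0 past 0.5 changed sign. Some could not move, such as the mean of probe sets for genes with 1 probe set, so this count does not measure robustness. ITD613 widens the spread where it is among the other 4. Ccnd3 on ITD611 went from -0.47 to -0.18 with probe sets averaged and is among the 129. For Ccnd1 on ITD78 the spread was 0, so any change counted as more. Ccnd2 on ITD613 ran from -0.82 to -0.71 with 1 array left out of the comparators, and Ccnd3 from 0.85 to 0.99. With the mean of probe sets, low probe sets included, Ccnd2 was -0.97, Ccnd3 was 0.37 and Cdkn1b was 0.33, so 2 of the 10 genes were then higher on ITD613; 1 was lower in each setting run. With 1 array left out, 4 to 5 were higher. The ranges of Ccnd2 and Ccnd3 over the arrays fell to 0.32 and 0.41 without ITD613. With the mean of probe sets 2 genes of the retinoblastoma and E2F list were higher on ITD613, against 8 as reported and 6 to 8 under the other alternatives. Of the E2F targets 2 were, against 4 as reported, 1 with median centring and 3 to 4 under the rest. Of the regulators 2 were, against 4 in each other setting, and of the G2 and M list 3, against 6 as reported and 4 to 6 under the rest. The cause of these smaller counts was not tested. Values under 3.74, all of Ccnd1 among them, are too close to background for a size.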
